A study of Mus musculus with 4 samples.

Results

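The genes described here encode the main enzymes and receptors of the prostaglandin E2 and leukotriene B4 branches of eicosanoid metabolism. They are 10 rows of a count table with 55416 gene IDs, found through their symbols: the cyclooxygenases Ptgs1 and Ptgs2, the prostaglandin E synthase Ptges, the prostaglandin E2 receptors Ptger2 and Ptger4, the 5-lipoxygenase Alox5 with its activating protein Alox5ap, the leukotriene synthases Lta4h and Ltc4s, and the leukotriene B4 receptor Ltb4r1. The table lists them as Ptgs1 (ENSMUSG00000047250, chromosome 2), Ptgs2 (ENSMUSG00000032487, chromosome 1), Ptges (ENSMUSG00000050737, chromosome 2), Ptger2 (ENSMUSG00000037759, chromosome 14), Ptger4 (ENSMUSG00000039942, chromosome 15), Alox5ap (ENSMUSG00000060063, chromosome 5), Alox5 (ENSMUSG00000025701, chromosome 6), Lta4h (ENSMUSG00000015889, chromosome 10), Ltc4s (ENSMUSG00000020377, chromosome 11) and Ltb4r1 (ENSMUSG00000046908, chromosome 14). RNA came from myeloid-derived suppressor cells (MDSCs), a mixed population of immature granulocytic and monocytic cells that builds up in tumor bearers, which had been flow-sorted out of ascitic fluid. The hosts were wild-type mice (WT, 2 libraries) and mice lacking Sphk2, the gene of sphingosine kinase 2 (Sphk2 KO, 2 libraries), and all of them, controls included, carried EL4 tumors (a murine T lymphoma cell line) and were killed 14 days after the tumor cells were given. Strain, age, knockout allele and the markers of the sort are not given here, and the labels leave it unsaid whether each library is its own mouse. The p-values therefore reflect the spread among these 4 libraries, which may be technical.

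Both branches start from arachidonic acid that phospholipases release from membranes. Cyclooxygenases turn it into prostaglandin H2, from which prostaglandin E synthase makes prostaglandin E2, a lipid that raises cyclic AMP in target cells through the EP2 and EP4 receptors and is known as a mediator of myeloid suppression in tumors. In the other branch 5-lipoxygenase, helped by its activating protein FLAP, makes leukotriene A4, which leukotriene A4 hydrolase converts to the neutrophil attractant leukotriene B4 and leukotriene C4 synthase converts to the cysteinyl leukotrienes. Neutrophils are a main source of leukotriene B4 and respond to it through the receptor BLT1.

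The libraries held between 14087613 and 24685576 counts. Sphk2 had 54.9 and 53.7 CPM (the usual depth-scaled count, here on library sizes scaled by the TMM method) in WT replicates 1 and 2, and 4.07 and 4.45 CPM in Sphk2 KO replicates 1 and 2, which fits the labels. Over 16566 tested genes, 18 were called at a Benjamini-Hochberg adjusted p under 0.05 (edgeR quasi-likelihood test). The 12 neutrophil markers summed to between 24200 and 42740 CPM in a library and the 12 monocyte and macrophage markers to between 818 and 1042 CPM. Markers of other cells were lower, with the B cell list at 229 to 468 CPM, the erythroid list at 59.6 to 530 CPM and the T cell list, which EL4 cells would add to, at 16.5 to 35.2 CPM. The mast cell and basophil, eosinophil, platelet, dendritic cell and mesothelial lists each reached at most 144 CPM in a library, and the mesothelial marker Krt19 was at 0 counts in 3 of the 4 libraries.

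All 10 genes passed the count filter and none was called between the genotypes. The edgeR test called 0 of 10, against 0.109% of all tested genes (0.0423% higher and 0.0664% lower in Sphk2 KO), 0 had an unadjusted p under 0.05, against 10.5% of all tested genes, and DESeq2 (0.446% of all genes it tested) and limma-voom also called 0. The smallest adjusted p of edgeR was 0.519. Fold changes were positive in 8 genes and negative in 2, with a median log2 fold change of 0.19 (Sphk2 KO over WT), against -0.00075 over all tested genes. Genotypes did not overlap in 4 genes (3 with Sphk2 KO above, 1 below), a share near the 43.2% of all tested genes for which this held. Their mean levels spanned 292-fold per exon length between Alox5ap and Ptges.

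**Figure D1:**
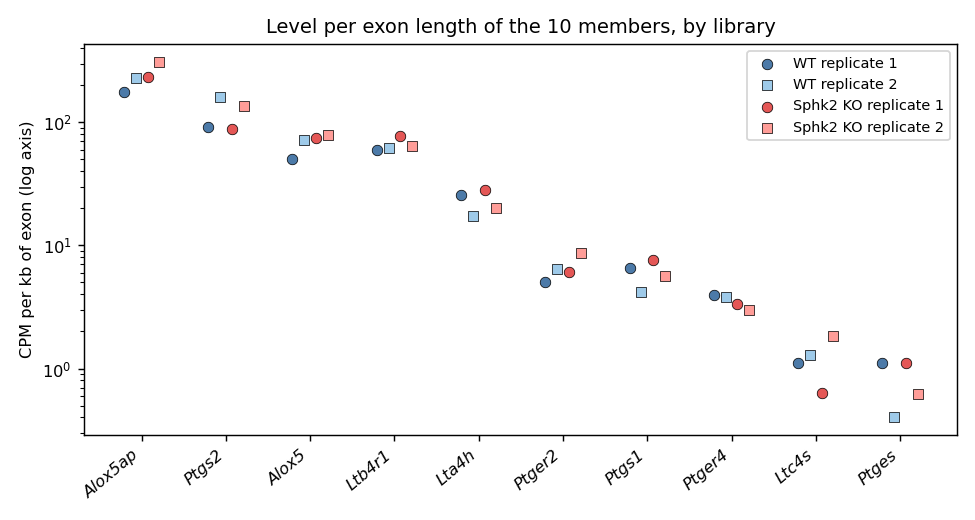
CPM per kilobase of exon (log axis) of the 10 genes in each library, ordered by their mean. Blue points are WT and red points Sphk2 KO libraries, with circles for replicate 1 and squares for replicate 2. Alox5ap and Ptgs2 lie highest, Ltc4s and Ptges lowest, and the spread within a gene is small beside the distance from one end to the other.

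Levels between genes were compared per kilobase of exon, with lengths from the GENCODE M21 annotation of GRCm38. Alox5ap led with 175 to 311 CPM per kb, above 99.3% of tested genes with a length. Ptgs2 followed with 89.1 to 162 CPM per kb. Alox5 (50.7 to 79.0 CPM per kb) and Ltb4r1 (59.6 to 77.5 CPM per kb) came next and could not be ordered, since each was the higher one in 2 of the 4 libraries. Lta4h stood at 17.2 to 28.0 CPM per kb. Ptger2 (5.03 to 8.75 CPM per kb) and Ptgs1 (4.22 to 7.62 CPM per kb) again overlapped, and Ptger4 lay below both at 2.98 to 3.98 CPM per kb. Ltc4s (0.633 to 1.84 CPM per kb) and Ptges (0.404 to 1.11 CPM per kb) were lowest and overlapped. Of the 9 neighbouring pairs in this order, 6 kept separate ranges over the 4 libraries. The 5-lipoxygenase, its activating protein, leukotriene A4 hydrolase and the leukotriene B4 receptor were thus all in the upper part of the distribution, while the enzyme for cysteinyl leukotrienes and the inducible prostaglandin E synthase were in its lower part, at the 26.7 and 19.1 percentiles.

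The cyclooxygenases catalyse the same reaction, with Ptgs1 commonly regarded as the constitutive form and Ptgs2 as the form induced by inflammatory signals. Ptgs2 had 423 CPM in WT replicate 1, 740.2 CPM in WT replicate 2, 408 CPM in Sphk2 KO replicate 1 and 619 CPM in Sphk2 KO replicate 2. The replicate 2 libraries were the higher ones in both genotypes and the groups overlapped. The WT mean was 582 ± 224 CPM and the Sphk2 KO mean 513 ± 149 CPM (SD, n = 2 each), a log2 fold change of -0.18 (SE 0.31, 95% interval -0.90 to 0.54, edgeR adjusted p = 0.847), and its sign changed omitting WT replicate 2 (0.30) and omitting Sphk2 KO replicate 1 (0.08). In bulk RNA, fewer cells of a type and less RNA per cell cannot be told apart, here or for any gene below. Ptgs1 had 25.5 and 16.4 CPM in WT replicates 1 and 2 and 29.6 and 21.8 CPM in Sphk2 KO replicates 1 and 2. Here the replicate 1 libraries were higher in both genotypes, and the groups overlapped again. Its log2 fold change was 0.28 (SE 0.26, 95% interval -0.30 to 0.87, edgeR adjusted p = 0.699), and 0.02 omitting WT replicate 2, 0.05 omitting Sphk2 KO replicate 1 and 0.63 omitting WT replicate 1. Per exon length Ptgs2 exceeded Ptgs1 14.0-fold and 38.3-fold in WT replicates 1 and 2 and 11.7-fold and 24.1-fold in Sphk2 KO replicates 1 and 2. Ptgs2 was thus the dominant cyclooxygenase transcript in every library, and the ratio varied more between libraries of one genotype than between genotypes. Platelets are another known source of Ptgs1 RNA. The platelet and megakaryocyte list of 6 genes summed to 22.1 to 27.8 CPM, most of it from Itga2b (17.2 to 21.8 CPM), with Gp9 at 2.78 to 3.35 CPM and Pf4 at 1 to 6 counts in a library. The part of platelets in the Ptgs1 values was not tested.

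Promoter windows show how the genes of these 2 cyclooxygenases, and of the 5-lipoxygenase that competes with them for arachidonic acid, differ in sequence upstream of their starts. They come from RefSeq on GRCm38.p6, not the GRCm39 build of the counts, and run from 250 bases before to 30 bases after the annotated start, 5′ to 3′ on the strand of the gene. Windows of 9 of the 10 genes were matched by symbol. Capitals mark matches on either strand to 6 short motifs, namely TATAAA (a core promoter box), CGTCA (core of the cyclic AMP response element), CACGTG (E-box), TTGCNNAA (C/EBP type), GGGCGG (Sp1 type) and GAGGAA (PU.1 type).
Ptgs2 (chr1:150099781-150100060, plus strand): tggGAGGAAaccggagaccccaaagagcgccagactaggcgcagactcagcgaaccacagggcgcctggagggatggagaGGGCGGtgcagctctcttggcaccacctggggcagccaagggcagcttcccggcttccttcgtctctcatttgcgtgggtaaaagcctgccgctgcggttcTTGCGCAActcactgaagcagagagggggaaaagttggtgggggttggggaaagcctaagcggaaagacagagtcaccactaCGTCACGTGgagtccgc
Ptgs1 (chr2:36230176-36230455, plus strand): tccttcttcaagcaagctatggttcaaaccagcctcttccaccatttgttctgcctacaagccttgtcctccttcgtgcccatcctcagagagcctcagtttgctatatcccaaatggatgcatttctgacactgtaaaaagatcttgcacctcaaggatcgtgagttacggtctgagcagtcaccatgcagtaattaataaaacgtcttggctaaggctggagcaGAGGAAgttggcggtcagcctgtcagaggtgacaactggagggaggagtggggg
Alox5 (chr6:116461149-116461428, minus strand): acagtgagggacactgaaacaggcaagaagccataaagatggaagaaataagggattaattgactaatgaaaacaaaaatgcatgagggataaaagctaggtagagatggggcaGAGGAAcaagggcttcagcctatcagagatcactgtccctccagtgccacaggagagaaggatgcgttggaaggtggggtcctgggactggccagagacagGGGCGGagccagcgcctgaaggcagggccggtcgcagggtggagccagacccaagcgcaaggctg

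The Ptgs2 window was the only one of the 9 with CGTCA (19.9% of 32851 windows of this length in the genome hold it), with CACGTG (6.79%) and with TTGCNNAA (10.4%). CGTCA and CACGTG overlap there and begin at positions 14 and 17 after the start, and the C/EBP-type match, which reads the same on both strands, begins at position -69. GGGCGG was in 5 windows (Ptgs2, Ptges, Ptger4, Alox5 and Ltb4r1), against 34.7% of all windows. GAGGAA was in 7 (all but Ptger2 and Ptger4), against 26.0%, and overlaps none of the other matches in the windows printed. TATAAA was in none, against 13.1% of all windows. The Ptgs1 window holds a single match, GAGGAA at position -24. These are matches of letters and were not tested for binding.

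Ptges encodes the inducible microsomal prostaglandin E synthase, which is often coupled to Ptgs2. It had 4.35 CPM in WT replicate 1, 1.59 CPM in WT replicate 2, 4.35 CPM in Sphk2 KO replicate 1 and 2.45 CPM in Sphk2 KO replicate 2, from 82, 22, 61 and 55 counts. The replicate 1 libraries of both genotypes were alike and above the others, and their exact Poisson 95% intervals (3.46 to 5.40 and 3.33 to 5.59 CPM, counting error only) lay above those of WT replicate 2 (0.996 to 2.41 CPM) and Sphk2 KO replicate 2 (1.84 to 3.19 CPM). Between genotypes the log2 fold change was 0.14 with a wide 95% interval of -1.01 to 1.29 (SE 0.50, edgeR adjusted p = 0.936). Leaving out 1 library moved it from -0.37 (omitting WT replicate 2) to 1.06 (omitting WT replicate 1), and it was -0.31 omitting Sphk2 KO replicate 1 and 0.53 omitting Sphk2 KO replicate 2. Ptges therefore ran opposite to Ptgs2 across the libraries: per exon length Ptgs2 exceeded it 83.3-fold and 399.6-fold in WT replicates 1 and 2 and 80.4-fold and 217-fold in Sphk2 KO replicates 1 and 2.

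The receptors for prostaglandin E2 gave values of opposite sign, and none of the alternatives reversed either. Ptger2, the EP2 receptor, had 26.1 and 33.2 CPM in WT replicates 1 and 2 and 31.8 and 45.4 CPM in Sphk2 KO replicates 1 and 2. Sphk2 KO replicate 1 fell within the WT range, so the groups overlapped. Its log2 fold change was 0.39 (SE 0.22, 95% interval -0.11 to 0.88, edgeR adjusted p = 0.554), and it was 0.11 omitting Sphk2 KO replicate 2, 0.21 omitting WT replicate 1, 0.58 omitting WT replicate 2 and 0.61 omitting Sphk2 KO replicate 1. Ptger4, the EP4 receptor, had 26.4 and 25.2 CPM in WT replicates 1 and 2 and 22.3 and 19.8 CPM in Sphk2 KO replicates 1 and 2. Both Sphk2 KO libraries lay below both WT libraries, as in 22.7% of all tested genes. The log2 fold change was -0.30 (SE 0.18, 95% interval -0.70 to 0.11, edgeR adjusted p = 0.571), and the interval runs from 0.615 to 1.08 times the WT level. Per exon length the ratio of Ptger2 to Ptger4 was 1.27 and 1.68 in WT replicates 1 and 2 and 1.82 and 2.94 in Sphk2 KO replicates 1 and 2, so that these groups did not overlap. This ratio was singled out after its values were seen and was not tested. Reads of Ptger4 may be affected by Gm15937, a pseudogene on the opposite strand within 15.3% of its exon bases, which held 1 to 3 counts, and those of Ptger2 by the antisense Gm17173 (4.74% of exon bases, 136 to 283 counts), since the library kit keeps strand but the strand setting of the counting is not given.

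**Figure D2:**
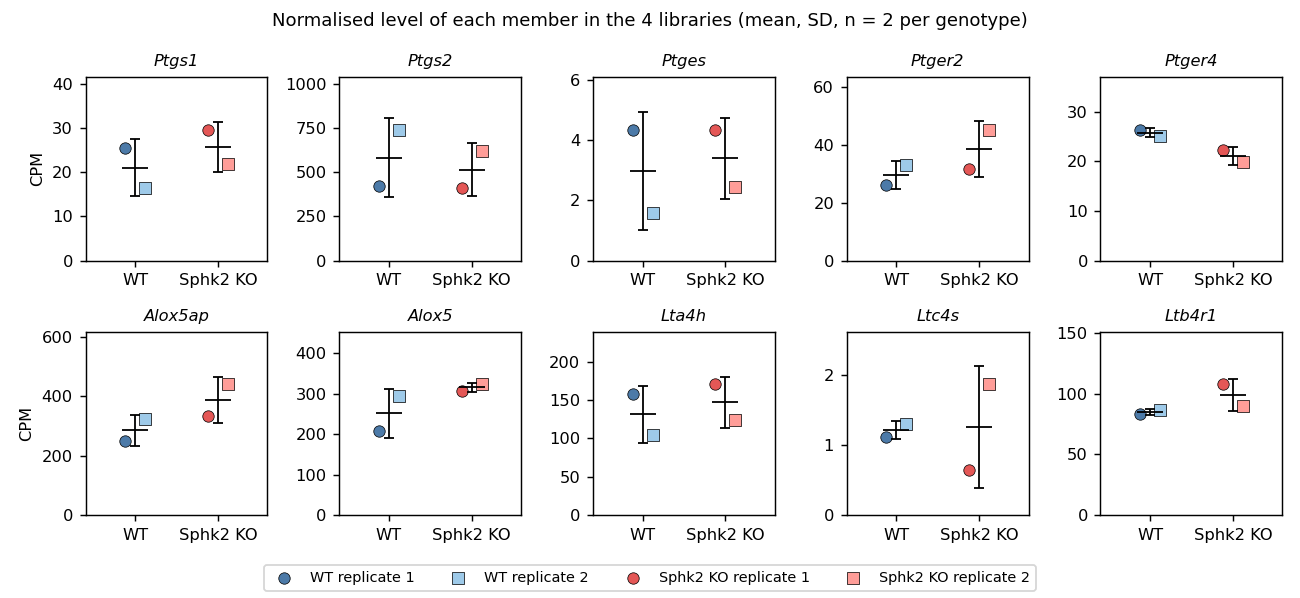
CPM of each of the 10 genes in the 4 libraries, on linear axes that start at 0; horizontal marks are means and bars are SD (n = 2 per genotype). Ptgs2, Ptger2, Alox5ap, Alox5 and Ltc4s are higher in the squares (replicate 2) of each genotype, Ptgs1, Ptges, Lta4h and Ptger4 in the circles (replicate 1), and Ltb4r1 differs between genotypes in this.

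The gene for FLAP, the membrane protein that presents arachidonic acid to 5-lipoxygenase, showed the largest genotype difference of the 10, and it stayed below the threshold. Alox5ap had 249 CPM in WT replicate 1, 322 CPM in WT replicate 2, 332 CPM in Sphk2 KO replicate 1 and 441 CPM in Sphk2 KO replicate 2. Both Sphk2 KO libraries were above both WT libraries, as in 20.4% of all tested genes, but WT replicate 2 and Sphk2 KO replicate 1 nearly met. The WT mean was 286 ± 51.9 CPM and the Sphk2 KO mean 387 ± 77.1 CPM (SD, n = 2 each), with a log2 fold change of 0.44 (SE 0.22, 95% interval -0.07 to 0.94, edgeR adjusted p = 0.519). It was 0.22 omitting Sphk2 KO replicate 2, 0.25 omitting WT replicate 1, 0.62 omitting Sphk2 KO replicate 1 and 0.65 omitting WT replicate 2, with adjusted p between 0.0621 and 1.0 in these fits. Gm19719, an antisense gene with 868 to 1974 counts, covers 13.3% of the exon bases of Alox5ap. How far this affects the counts of Alox5ap (4462 to 9914) was not tested.

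Alox5, the 5-lipoxygenase itself, had 208 and 295 CPM in WT replicates 1 and 2 and 307 and 324 CPM in Sphk2 KO replicates 1 and 2. WT replicate 1 was low and the other 3 libraries were close together. The log2 fold change was 0.33 (SE 0.21, 95% interval -0.15 to 0.80, edgeR adjusted p = 0.592), and 0.09 omitting WT replicate 1 against 0.62 omitting WT replicate 2. FLAP and 5-lipoxygenase act together, and the ratio of their transcripts per exon length ranged from 3.13 to 3.93 over the 4 libraries. All 12 neutrophil markers also had positive log2 fold changes (median 0.52, 4 with an unadjusted p under 0.05 by edgeR, against 3.06% of all tested genes in this direction). Their sum was 24200 and 31290 CPM in WT replicates 1 and 2 and 37640 and 42740 CPM in Sphk2 KO replicates 1 and 2. Ltf, Camp, Ngp and Lcn2 of this list were lower in replicate 2 of each genotype, where Alox5 and Alox5ap were higher. Erythroid markers were also higher, with 5 of 6 at an unadjusted p under 0.05, while 6 of 6 B cell and 6 of 8 T cell markers were lower at that level (7.47% of all tested genes in this direction). Neutrophil precursor markers were negative in 6 of 6 (median -1.15, 2 at that level) and monocyte and macrophage markers in 9 of 12 (median -0.20, 3 at that level). Mesothelial and fibroblast markers were negative in 3 of 3 tested, with 3 more below the count filter. Col1a2 (-3.83) and Pdgfra (-3.30) were at that level, but both passed the filter on their WT counts alone. In WT replicates 1 and 2 Col1a2 had 20 and 54 counts and Pdgfra 13 and 15. In Sphk2 KO replicates 1 and 2 Col1a2 had 2 and 4 counts and Pdgfra 1 and 2. The part of any of these markers in the values of Alox5 and Alox5ap was not tested.

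Downstream of 5-lipoxygenase, leukotriene A4 hydrolase was abundant and leukotriene C4 synthase near the bottom of the range. Lta4h had 158 and 105 CPM in WT replicates 1 and 2 and 171 and 124 CPM in Sphk2 KO replicates 1 and 2. As for Ptgs1, the replicate 1 libraries were higher in both genotypes and the groups overlapped. The log2 fold change was 0.16 (SE 0.23, 95% interval -0.37 to 0.70, edgeR adjusted p = 0.805), and its sign changed omitting WT replicate 2 (-0.08) and omitting Sphk2 KO replicate 1 (-0.09). Ltc4s had 1.12 CPM (21 counts) in WT replicate 1, 1.30 CPM (18 counts) in WT replicate 2, 0.642 CPM (9 counts) in Sphk2 KO replicate 1 and 1.87 CPM (42 counts) in Sphk2 KO replicate 2. The Sphk2 KO libraries lay on either side of both WT libraries. Their exact Poisson 95% intervals, 0.294 to 1.22 CPM and 1.35 to 2.53 CPM, did not meet, so the spread within this genotype exceeded counting error. The log2 fold change of 0.13 had a 95% interval from -1.08 to 1.34 (SE 0.53, edgeR adjusted p = 0.945), which runs from 0.472 to 2.53 times the WT level. It moved to -0.89 omitting Sphk2 KO replicate 2 and to 0.63 omitting Sphk2 KO replicate 1. The antisense gene Gm26542 covers 26.4% of the exon bases of Ltc4s and held 142 to 290 counts, so the level of Ltc4s is uncertain. Mast cells, basophils and eosinophils are known sources of leukotriene C4 synthase. The mast cell and basophil list summed to 82.5 and 106 CPM in WT replicates 1 and 2 and 144 and 137 CPM in Sphk2 KO replicates 1 and 2. Kit gave 35.4 and 48.8 CPM of this in WT replicates 1 and 2 and 69.6 and 95.9 CPM in Sphk2 KO replicates 1 and 2. Of the 7 tested genes of the list, Kit was the only 1 whose groups did not overlap. The eosinophil list summed to 65.3 to 79.3 CPM. Of the 5 eosinophil genes, Siglecf had 50.7 to 64.4 CPM, Ccr3 7.01 to 9.48 CPM and Il5ra 2.27 to 5.28 CPM. The granule genes were lower, with Prg2 at 0.356 to 3.35 CPM and Epx at 0 counts in WT replicate 2 and Sphk2 KO replicate 2. The share of these cells in the Ltc4s counts was not tested.

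Ltb4r1, which encodes the high-affinity leukotriene B4 receptor BLT1, was the steadiest of the 10, with a ratio of 1.30 between its highest and lowest library. It had 83.1 and 87.0 CPM in WT replicates 1 and 2 and 108 and 89.6 CPM in Sphk2 KO replicates 1 and 2. The Sphk2 KO libraries were both above WT, although Sphk2 KO replicate 2 by less than the gap between the WT libraries. The log2 fold change was 0.22 (SE 0.15, 95% interval -0.14 to 0.57, edgeR adjusted p = 0.637), and it was 0.07 omitting Sphk2 KO replicate 1. A change to more than 1.49 times or less than 0.909 of the WT level lies outside the interval. Among the 10 genes this interval was the narrowest, and those of Ptges and Ltc4s, the least abundant genes, were the widest.

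**Figure D3:**
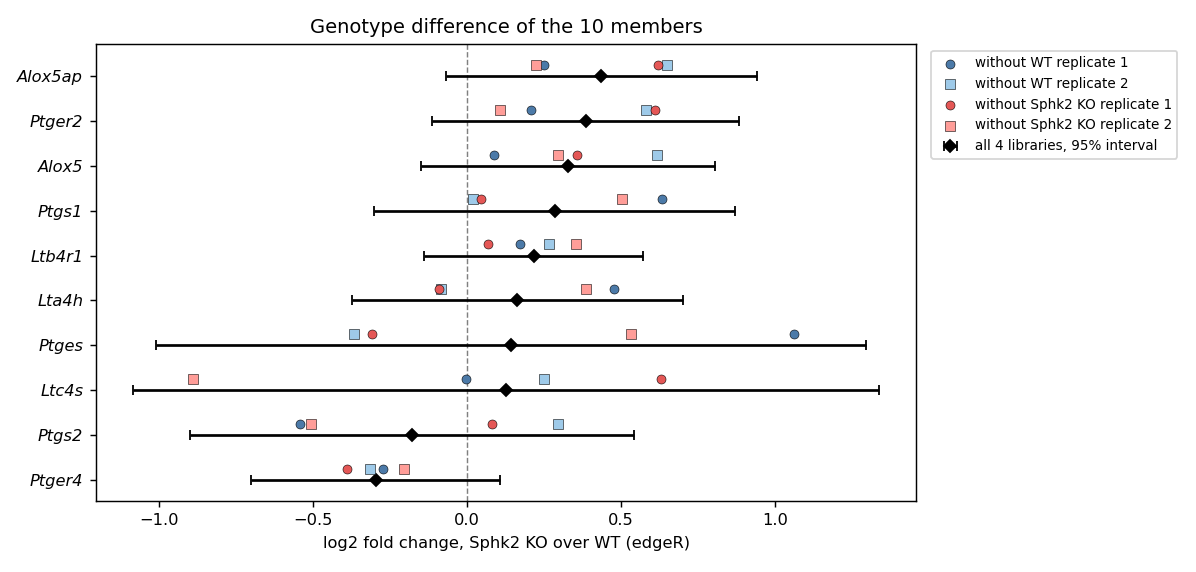
Log2 fold change of Sphk2 KO over WT for the 10 genes. Diamonds and bars are the edgeR estimate over all 4 libraries with its 95% interval, and coloured points are the estimates when the named library is left out. Every interval includes 0, and the points of Ptges, Ltc4s, Ptgs2 and Lta4h fall on both sides of it.

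The difference of replicate 2 minus replicate 1 was averaged with its sign over the genotypes, so that opposite signs cancel. For 6 of the 10 genes this mean was larger in size than the genotype difference averaged likewise over the replicate numbers. That share is near the 49.2% of all tested genes. Between the WT libraries, Ptges differed by -1.39 (replicate 2 minus replicate 1) on the log2 CPM scale, Ptgs2 by 0.81, Ptgs1 by -0.64 and Lta4h by -0.59, and between the Sphk2 KO libraries Ltc4s differed by 1.39. Differences were smaller for Ptger4 (-0.07 in WT and -0.17 in Sphk2 KO) and Ltb4r1 (0.07 and -0.27), and for Alox5 within Sphk2 KO (0.08). Precursor markers such as Mpo and Elane, which immature granulocytes express, also differed between libraries of a genotype. The list of 6 summed to 267 and 78.0 CPM in WT replicates 1 and 2 and 118 and 49.6 CPM in Sphk2 KO replicates 1 and 2. Ptgs1, Ptges, Lta4h and, by a small margin, Ptger4 were also higher in the library of each genotype with the larger precursor sum, and the part of these markers in their values was not tested.

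Over the 4 libraries, the profile most like that of Ptgs2 among 8841 tested genes of at least 5 CPM was that of Trim9, at a root mean square distance of 0.046 in centred log2 CPM. Gadd45b, a stress-inducible gene (distance 0.051), and Ccrl2, a chemerin-binding receptor (0.054), followed. Gadd45b had 42.7 and 77.9 CPM in WT replicates 1 and 2 and 44.9 and 67.9 CPM in Sphk2 KO replicates 1 and 2. For Alox5ap the nearest profiles were those of Gpld1 (0.015), Il4ra, the interleukin 4 receptor alpha chain (0.025), and Peli1, a ubiquitin ligase of Toll-like receptor signaling (0.026). Il4ra had 657 and 858 CPM in WT replicates 1 and 2 and 915 and 1170 CPM in Sphk2 KO replicates 1 and 2. These distances describe 4 libraries and carry no test.

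The rest of the pathway was read from 8 lists with 72 other genes, of which 55 passed the count filter. By edgeR 0 of the 55 were called, 2 had positive and 4 negative log2 fold changes with an unadjusted p under 0.05 (3.06% and 7.47% of all tested genes in these directions), and DESeq2 and limma-voom also called 0. The median log2 fold change was -0.12 (22 positive, 33 negative), and it reached 0.0048 when Sphk2 KO replicate 2 was left out and -0.22 when Sphk2 KO replicate 1 was. Both Sphk2 KO libraries lay above both WT libraries in 11 of the 55 and below in 14. These shares are near the 20.4% and 22.7% of all tested genes. Of 15 genes of phospholipases and arachidonate release, 10 were tested. Mgll, the monoacylglycerol lipase that can supply arachidonic acid from 2-arachidonoylglycerol, had 11.7 and 15.9 CPM in WT replicates 1 and 2 and 26.2 and 23.1 CPM in Sphk2 KO replicates 1 and 2. Its groups did not overlap, and the log2 fold change was 0.84 (SE 0.22, edgeR adjusted p = 0.382). With genotype alone in the model it was called by edgeR with no count filter (0.84, adjusted p = 0.0288), a setting that called 615 of 29707 genes. Omitting WT replicate 2 its log2 fold change was 1.09. Pla2g7, the most abundant gene of this list, which encodes the platelet-activating factor acetylhydrolase, gave 0.38 (SE 0.25, edgeR adjusted p = 0.605).

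Prostanoid synthases other than Ptges gave values in both directions, 3 positive and 4 negative among 7 tested. Tbxas1, the thromboxane A synthase, had 25.4 and 31.4 CPM in WT replicates 1 and 2 and 41.1 and 42.0 CPM in Sphk2 KO replicates 1 and 2. The Sphk2 KO libraries were nearly equal and above both WT libraries (log2 fold change 0.55, SE 0.17, edgeR adjusted p = 0.408). Akr1b3, an aldo-keto reductase with prostaglandin F synthase activity, had 18.7 and 13.2 CPM in WT replicates 1 and 2 and 10.8 and 6.05 CPM in Sphk2 KO replicates 1 and 2 (log2 fold change -0.94, SE 0.32, edgeR adjusted p = 0.424). With genotype alone in the model it was called by edgeR with no count filter (-0.94, adjusted p = 0.0253), a setting that called 615 of 29707 genes. Its log2 fold change was -1.41 omitting Sphk2 KO replicate 1 and -1.16 omitting WT replicate 2. Ptges3, the cytosolic synthase and the most abundant of the list, gave -0.08 (SE 0.15). None of the 5 tested prostanoid receptors of this list had an unadjusted p under 0.05 by edgeR, and Ptger1, the EP1 receptor, led them in abundance with 15.8 to 17.6 CPM. Its log2 fold change was 0.12 (SE 0.19).

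Genes that transport, export or inactivate the products gave mixed values. All 5 tested genes of prostaglandin transport and breakdown were negative (median log2 fold change -0.24), and the sign of Abcc4 changed in the fits lacking WT replicate 1 (0.14) or Sphk2 KO replicate 2 (0.07). Ptgr3 (listed as Zadh2), a prostaglandin reductase, had 11.4 and 8.89 CPM in WT replicates 1 and 2 and 6.78 and 5.38 CPM in Sphk2 KO replicates 1 and 2. Its log2 fold change was -0.75 (SE 0.27, edgeR adjusted p = 0.425). Abcc1, the exporter of leukotriene C4, had 32.2 and 29.3 CPM in WT replicates 1 and 2 and 21.8 and 17.0 CPM in Sphk2 KO replicates 1 and 2 (log2 fold change -0.67, SE 0.19, edgeR adjusted p = 0.402). For Ptgr3 and Abcc1 the groups did not overlap. The list that holds Abcc1 had 6 positive and 4 negative values, and Cotl1, a 5-lipoxygenase binding protein and its most abundant gene, gave 0.22 (SE 0.19). Cysltr1, the receptor for cysteinyl leukotrienes, had 7.49 and 3.32 CPM in WT replicates 1 and 2 and 3.21 and 2.22 CPM in Sphk2 KO replicates 1 and 2. WT replicate 1 stood above the other 3 libraries (log2 fold change -1.02, SE 0.43, edgeR adjusted p = 0.466). With genotype alone in the model the value was -1.46 omitting WT replicate 2 and -0.32 omitting WT replicate 1. Of 6 other lipoxygenase genes 3 were tested, with log2 fold changes from 0.03 to 0.06, and Alox15 was the most abundant at 3.65 to 6.64 CPM.

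The last list held 14 genes that respond to or transmit cyclic AMP, the messenger of EP2 and EP4, and that other signals also induce. Of the 13 tested, 2 were positive and 11 negative, with a median log2 fold change of -0.26, and 0 had an unadjusted p under 0.05 by edgeR. Both Sphk2 KO libraries lay below both WT libraries in 4 of the 13, near the 22.7% of all tested genes. Per1, the most abundant, had 681 and 672 CPM in WT replicates 1 and 2 and 652 and 622 CPM in Sphk2 KO replicates 1 and 2 (log2 fold change -0.09, SE 0.20). Nr4a2 and Nr4a3, nuclear receptor genes named here after their values were seen, gave -0.66 (SE 0.38) and -0.48 (SE 0.47) over all libraries. Nr4a2 had 14.8 and 24.0 CPM in WT replicates 1 and 2 and 7.56 and 16.7 CPM in Sphk2 KO replicates 1 and 2. For Nr4a3 these were 19.3, 47.55, 13.8 and 33.45 CPM in the same order, and the groups of both genes overlapped. In the model of genotype alone, Nr4a2 gave -1.35 and Nr4a3 -1.26 with Sphk2 KO replicate 2 omitted. Thbs1, the thrombospondin 1 gene, likewise named after its values were seen, gave -0.88 (SE 0.42) over all libraries. In the same model it was called by edgeR with no count filter (-0.87, adjusted p = 0.00134), a setting that called 615 of 29707 genes. Its log2 fold change was -1.38 omitting WT replicate 2 and -1.38 omitting Sphk2 KO replicate 1.

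**Figure D4:**
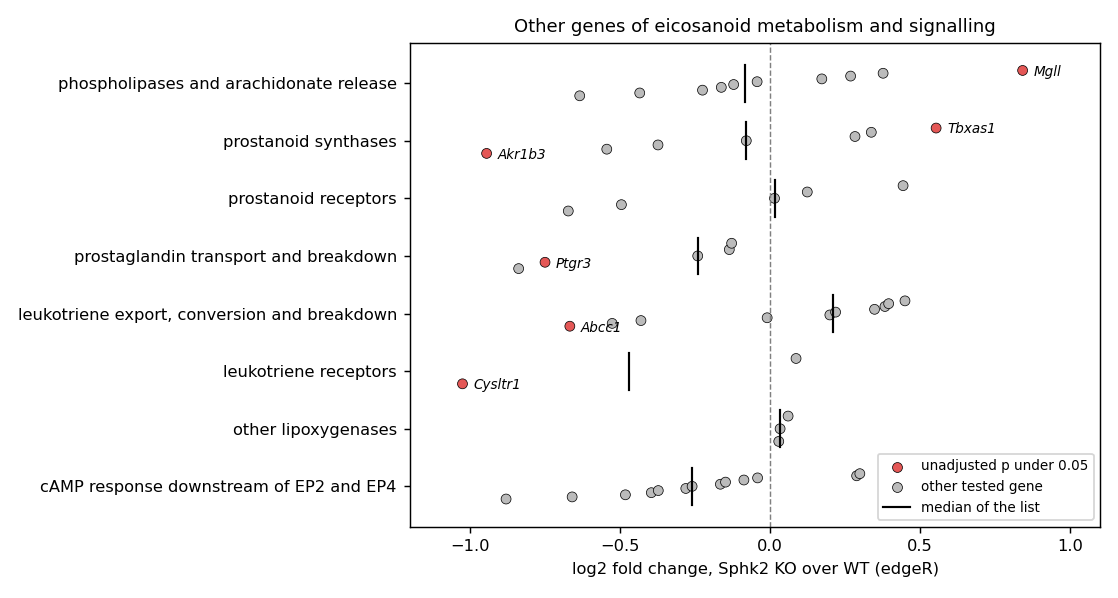
Log2 fold change of Sphk2 KO over WT (edgeR, all 4 libraries) for the 55 tested genes of the 8 lists, 1 point per gene. Red points have an unadjusted p under 0.05, grey points do not, and vertical bars are the list medians; 2 red points lie above 0 and 4 below.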

How the data were processed

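Poly(A) RNA libraries from 250 ng of RNA (RINe 9.7 to 10) were sequenced as paired ends, per the labels' protocols. The authors deposited raw counts per Ensembl gene ID, with 1 column for each of the 4 libraries. Trim Galore, STAR, featureCounts, DESeq2 and the build GRCm39 are named in the submitters' processing notes. The library kit keeps strand, per the labels, but tool versions, the strand setting of the counting and its handling of multimapping reads are not given here, so overlapping genes cannot be told apart. Of 55416 IDs, 52083 (94.0%) had a symbol in the name table, and 0 rows named no gene. Libraries held 14087613 to 24685576 counts.

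The test was the quasi-likelihood F test of edgeR 4.0.16 (R 4.3.3), with filterByExpr, TMM and a model of genotype alone (Benjamini-Hochberg adjustment over 16566 genes). The median SE over them was 0.28. The SE was obtained from the fold change and its F value, and intervals use the t distribution of that fit. Log2 CPM uses a prior count of 2. Poisson intervals cover counting error only. The fit was tested on simulated data. Exon lengths and overlaps came from GENCODE M21 (GRCm38), through gene IDs. Members and lists were chosen with earlier results of these data known. Other genes were named by a rule: of each list, every called gene, up to 2 genes in each direction with the smallest unadjusted p under 0.05, and the most abundant gene. Nr4a2, Nr4a3 and Thbs1 do not meet this rule and were named after their values were seen. Plaat3, Prxl2b and Ptgr3 were matched by older symbols. The promoter motifs were chosen after the data were seen. Alternatives were DESeq2 1.42.0, limma-voom (limma 3.58.1), RLE size factors, library size alone, 2 other count filters, robust empirical Bayes, a replicate block and each library left out.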

Additional observations from a re-analysis of the deposited data

How the results depend on the processing

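The count of called genes over all tested genes was 76 with DESeq2, 615 without a count filter and 2637 with a replicate block, against 18. It was 54 omitting WT replicate 1, 1061 omitting WT replicate 2, 639 omitting Sphk2 KO replicate 1 and 59 omitting Sphk2 KO replicate 2. Of the 10 prostaglandin and leukotriene genes 0 were called in 11 of the 12 alternatives. The exception was the replicate block, which called 2637 of all 16566 tested genes and 2 of the 10. These were Alox5ap (0.43, SE 0.14, edgeR adjusted p = 0.0227) and Ptger2 (0.37, SE 0.12, adjusted p = 0.026). Equal numbers share only a number per the labels; replicate 2 minus replicate 1 correlated at 0.44 (Pearson) between the genotypes across genes, which are not independent replicates, and had the same sign in both for 9 of the 10 genes and 70.4% of all tested genes. Other eicosanoid genes called numbered 3 without a count filter, 14 with the replicate block, 5 omitting WT replicate 2, 3 omitting Sphk2 KO replicate 1, 2 omitting Sphk2 KO replicate 2 and 0 omitting WT replicate 1, against 0. The 14 of the replicate block were Mgll (edgeR adjusted p = 1.325e-05), Akr1b3 (1.908e-05), Abcc1 (8.551e-05), Tbxas1 (0.000505), Ptgr3 (0.00469), Cysltr1 (0.00868), Thbs1 (1.763e-06), Nr4a2 (0.000424), Nr4a3 (0.0034), Adcy7, Ggt1, Ggt5, Mgst2 and Ptgr1 (0.0122 to 0.0413). The median of all 55 tested other eicosanoid genes was -0.31 with library size alone, a scaling that shifts all genes by -0.17. Without 1 library it was -0.22 to 0.0048.

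Of 119 alternative fold changes of the 10 genes, 107 kept their sign. With library size alone Ptges gave -0.049, Lta4h -0.021, Ltc4s -0.068, Ptger1 -0.047 and Alox15 -0.12. With limma-voom Ltc4s gave -0.0067 and Alox15 -0.049. Without 1 library Ptgs2 ranged from -0.54 to 0.30, Ptges from -0.37 to 1.06, Lta4h from -0.091 to 0.48, Ltc4s from -0.89 to 0.63, Abcc4 from -0.36 to 0.14 and Alox15 from -0.45 to 0.43. The cause was not tested. With 1 library left in a genotype, that library is assumed to vary like the others. Ltc4s fell below the stricter filter and has no value there. Depth limits Ltc4s and Ptges, with 9 to 82 counts in a library.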
